A study of Homo sapiens with 12 samples.

Results

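Cells make serine, glycine, asparagine and proline, import other amino acids through membrane carriers, and load each amino acid onto its tRNA with an aminoacyl-tRNA synthetase. The 35 genes described here cover these steps and were chosen by name: 5 enzymes of serine, glycine and one-carbon synthesis, 3 of asparagine and proline synthesis, 8 amino acid transporters and 19 cytosolic tRNA synthetases. Earlier results of these data were known when the genes were chosen. A probe annotated to the gene and detected on both arrays of at least 1 group was required, and 34 of the 35 genes met this, out of 12117 genes tested. ALDH18A1, an enzyme of proline synthesis, was not analysed here. All 34 were detected on both arrays of every group, so none entered only through the group in which it was high.

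The samples were RNA of H1299 cells, a line from a human lung cancer of the non-small cell type, hybridised to Illumina bead arrays. Samples of 3 kinds were compared: cells given a GAPDH siRNA by lipofection (cationic lipid), cells given a GAPDH siRNA bound to PTD-DRBD (a protein that joins a cell-penetrating peptide to a double-stranded RNA binding domain), and control cells given PBS buffer. Exposure lasted 6 h in every group, the cells were then washed, and RNA was taken at 12 h or 24 h, with 2 arrays for each of the 6 combinations. Whether both arrays of a group stand for separate cultures is not stated, so every p-value measures the spread between arrays, which may be technical. Cells given a carrier alone or a non-targeting siRNA were not analysed here, and the siRNA dose of each route was not given in the sources used here, so carrier, siRNA and loss of GAPDH cannot be told apart.

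When amino acids run short, uncharged tRNA activates the kinase GCN2 (the product of EIF2AK4), which phosphorylates eIF2 alpha, slows translation in general and favours translation of the transcription factor ATF4. Other stresses reach the same factor through other eIF2 alpha kinases. ATF4 pairs with C/EBP proteins at composite sites called C/EBP-ATF response elements, and many genes of amino acid synthesis, uptake and tRNA charging are known as its targets in human cells.

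The best known of these sites lies in the ASNS promoter, so the 250 bases before each annotated start were searched for the letters TGATGNAA on either strand. RefSeq (GRCh38.p14) gave promoter windows for 29 of the 35 genes. Of their 41 windows, 5 held a match (12.2%), against 1104 of all 35116 windows (3.14%). The match in ASNS was foreseen from the choice of letters, and some genes have several windows. The difference between these shares was not tested. The windows of 3 genes are shown, that of ASNS because its site is the best known and those of AARS1 and IARS1 because these genes have 1 window each and it holds a match; capitals mark the matched letters. ASNS lies on the minus strand (chr7:97872409-97872658), its match begins 68 bases before this start, which is 1 of 2 in the table and lies inside the gene's annotated extent, and it was among the genes that changed most. AARS1 lies on the minus strand (chr16:70289507-70289756), with the match 187 bases before the start on the opposite strand, so that it reads as the reverse complement. IARS1 lies on the minus strand (chr9:92293698-92293947), with the match 13 bases before the start, also on the opposite strand.
ASNS: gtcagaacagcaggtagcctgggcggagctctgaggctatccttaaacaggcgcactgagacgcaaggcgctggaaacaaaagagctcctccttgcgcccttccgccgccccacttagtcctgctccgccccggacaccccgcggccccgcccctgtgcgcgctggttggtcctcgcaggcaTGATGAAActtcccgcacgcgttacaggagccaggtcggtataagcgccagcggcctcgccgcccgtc
AARS1: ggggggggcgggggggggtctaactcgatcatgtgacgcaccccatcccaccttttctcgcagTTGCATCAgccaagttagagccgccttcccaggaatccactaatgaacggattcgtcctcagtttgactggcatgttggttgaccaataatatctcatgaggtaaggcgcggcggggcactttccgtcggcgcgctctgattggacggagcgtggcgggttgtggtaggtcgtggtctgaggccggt
IARS1: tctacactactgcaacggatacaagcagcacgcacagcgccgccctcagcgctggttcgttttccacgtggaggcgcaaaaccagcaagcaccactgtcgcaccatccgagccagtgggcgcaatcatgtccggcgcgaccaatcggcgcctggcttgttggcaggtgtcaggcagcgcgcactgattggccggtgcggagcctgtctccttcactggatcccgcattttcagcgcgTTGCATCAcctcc
GARS1 and SLC1A5 had a match before 1 of their alternative starts, inside the gene's annotated extent as for ASNS; these windows are not shown. A match is a run of letters, not a measured binding site, and the change in RNA did not follow it in every gene. IARS1 passed in no comparison with control, while PSAT1 and SLC6A9 had no match in their window and rose with PTD-DRBD at 12 h.

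GAPDH, the siRNA target, was lower in all 4 treated groups (log2 change -1.26 with lipofection and -3.36 with PTD-DRBD at 12 h, -0.96 with lipofection and -2.84 with PTD-DRBD at 24 h; limma adjusted p at most 3.11e-05), so the routes differed in knockdown by 2.09 and 1.88 log2 units at 12 h and 24 h. KRT8, KRT18 and VIM, which H1299 cells express, were detected on 12 of 12 arrays. Of the markers of blood, vessel, connective tissue, liver and glial cells, CD3E, CD14, HBB, CDH5, VWF, COL1A1, COL3A1 and ALB were detected on no array. The others were detected on some or all arrays: PTPRC on 12, GFAP on 9, PECAM1 on 6, HBA1 on 5 and DCN on 2. PTPRC, the brightest of those detected, stayed between 5.08 and 5.59 log2 units. From 17990 to 19097 of 48701 probes were detected on an array, and replicate arrays correlated at 0.997 to 0.998. All values below are log2 intensities after background correction and quantile normalization, differences are between group means on that scale with the standard error (SE) of the fit, and a gene rose or fell where the limma adjusted p over all 12117 genes was under 0.05. Levels are compared within a probe only, and in these bulk samples fewer cells and less RNA per cell cannot be told apart.

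At 12 h the genes moved upward with both routes. With lipofection 8 of the 34 rose and 0 fell (13 and 0 at an unadjusted p under 0.05), where 4.95% of all genes rose and 6.92% fell. With PTD-DRBD 13 rose and 1 fell, where 3.42% of all genes rose and 4.46% fell. The median change of the 34 was 0.14 with lipofection and 0.27 with PTD-DRBD, against -0.0008 and 0.0075 over all genes. At 24 h the balance was different: with lipofection 2 rose and 9 fell (10.6% and 12.9% of all genes), and with PTD-DRBD 2 rose and 3 fell (5.87% and 8.15% of all genes), with medians of -0.17 and -0.02. The 11 members that passed in none of these 4 comparisons were PYCR1, SLC1A5, SLC38A1, FARSA, FARSB, IARS1, KARS1, LARS1, NARS1, RARS1 and TARS1. The counts of smaller gene lists below are to be read beside these shares of all genes in the same comparisons. Each time point's comparisons use the same 2 control arrays, so the routes' changes against control are not independent of each other.

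**Figure D1:**
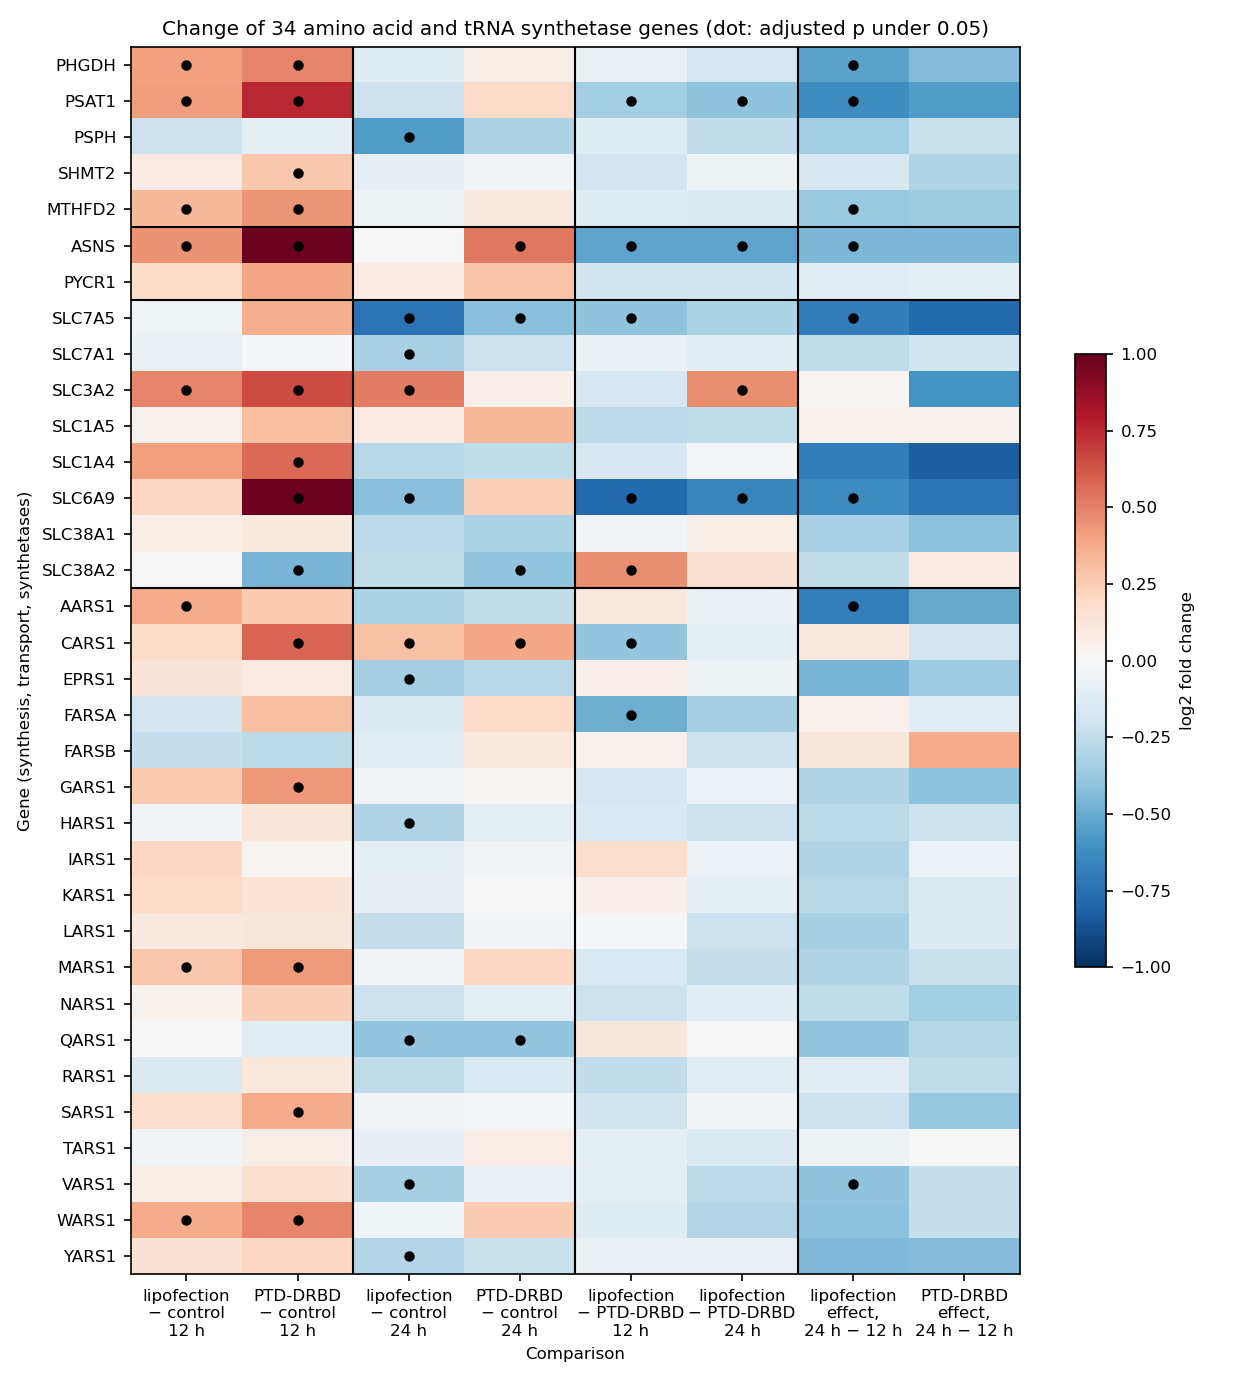
Log2 fold change of the 34 measured genes (rows, grouped from top to bottom as serine and one-carbon synthesis, asparagine and proline synthesis, transporters and synthetases) in 8 comparisons (columns), with a black dot where the limma adjusted p was under 0.05. The 12 h columns against control are mostly red, with 13 genes higher with PTD-DRBD, and the lipofection column at 24 h is mostly blue, with 9 genes lower.

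The enzymes of serine synthesis and mitochondrial one-carbon metabolism rose at 12 h, 3 of 5 with lipofection and 4 of 5 with PTD-DRBD. PHGDH catalyses the first step of serine synthesis. It measured 13.14 and 13.26 on the lipofection arrays and 13.25 and 13.29 on the PTD-DRBD arrays at 12 h, against 12.80 and 12.77 on the control arrays, so every treated array lay above both controls (change 0.41 with lipofection, SE 0.072, adjusted p 0.00425; 0.49 with PTD-DRBD, SE 0.072, adjusted p 0.00297). At 24 h it measured 12.69 and 12.67 with lipofection and 12.88 and 12.82 with PTD-DRBD, against 12.81 and 12.78 in control cells, and neither change passed.

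PSAT1, the aminotransferase of the next step, had the largest rise of the 5. At 12 h its arrays read 11.77 and 11.82 with lipofection and 12.10 and 12.17 with PTD-DRBD, against 11.45 and 11.31 in control cells. The 3 groups did not overlap, with control lowest and PTD-DRBD highest (change 0.42 with lipofection, SE 0.076, adjusted p 0.00527; 0.75 with PTD-DRBD, SE 0.076, adjusted p 0.000366). At 24 h it read 11.26 and 11.22 with lipofection and 11.67 and 11.61 with PTD-DRBD, against 11.44 and 11.45 in control cells, so that the lipofection arrays lay below the controls and the PTD-DRBD arrays above them, although neither change passed (adjusted p 0.0717 with lipofection and 0.105 with PTD-DRBD).

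MTHFD2, a mitochondrial folate dehydrogenase of one-carbon metabolism, measured 12.28 and 12.25 with lipofection and 12.35 and 12.41 with PTD-DRBD at 12 h, against 11.98 and 11.90 in control cells. Both groups lay clear of the controls (0.32 with lipofection, adjusted p 0.0140; 0.44 with PTD-DRBD, adjusted p 0.00464). At 24 h its arrays read 11.90 and 11.82 with lipofection and 12.01 and 11.98 with PTD-DRBD, against 11.90 and 11.92, and no change passed. SHMT2, which converts serine to glycine in mitochondria, rose with PTD-DRBD at 12 h only narrowly past the threshold (0.27, adjusted p 0.0486), and its change with lipofection was 0.08. PSPH, the phosphatase of the last step to serine, did not take part in the rise: its changes at 12 h were -0.21 and -0.09 with lipofection and PTD-DRBD, and at 24 h it fell with lipofection by 0.56 (SE 0.13, adjusted p 0.00959).

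ASNS, which makes asparagine from aspartate and glutamine and whose promoter is shown above, had one of the largest changes of the 34. At 12 h it measured 12.97 and 12.92 with lipofection and 13.48 and 13.47 with PTD-DRBD, against 12.51 and 12.48 in control cells. It was thus raised 1.37-fold by lipofection (log2 0.45, SE 0.073, adjusted p 0.00287) and 1.97-fold by PTD-DRBD (log2 0.98, SE 0.073, adjusted p 4.99e-05), with no overlap among the 3 groups. At 24 h it measured 12.39 and 12.31 with lipofection and 12.91 and 12.84 with PTD-DRBD, against 12.39 and 12.31 in control cells. The lipofection arrays then overlapped the controls (change 0.0011, 95% interval -0.16 to 0.16), while PTD-DRBD still lay above them (0.53, SE 0.073, adjusted p 0.00277). PYCR1, which completes proline synthesis, changed by 0.19 with lipofection and 0.38 with PTD-DRBD at 12 h and by 0.08 and 0.28 at 24 h, and no change passed on either of its 2 probes.

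**Figure D2:**
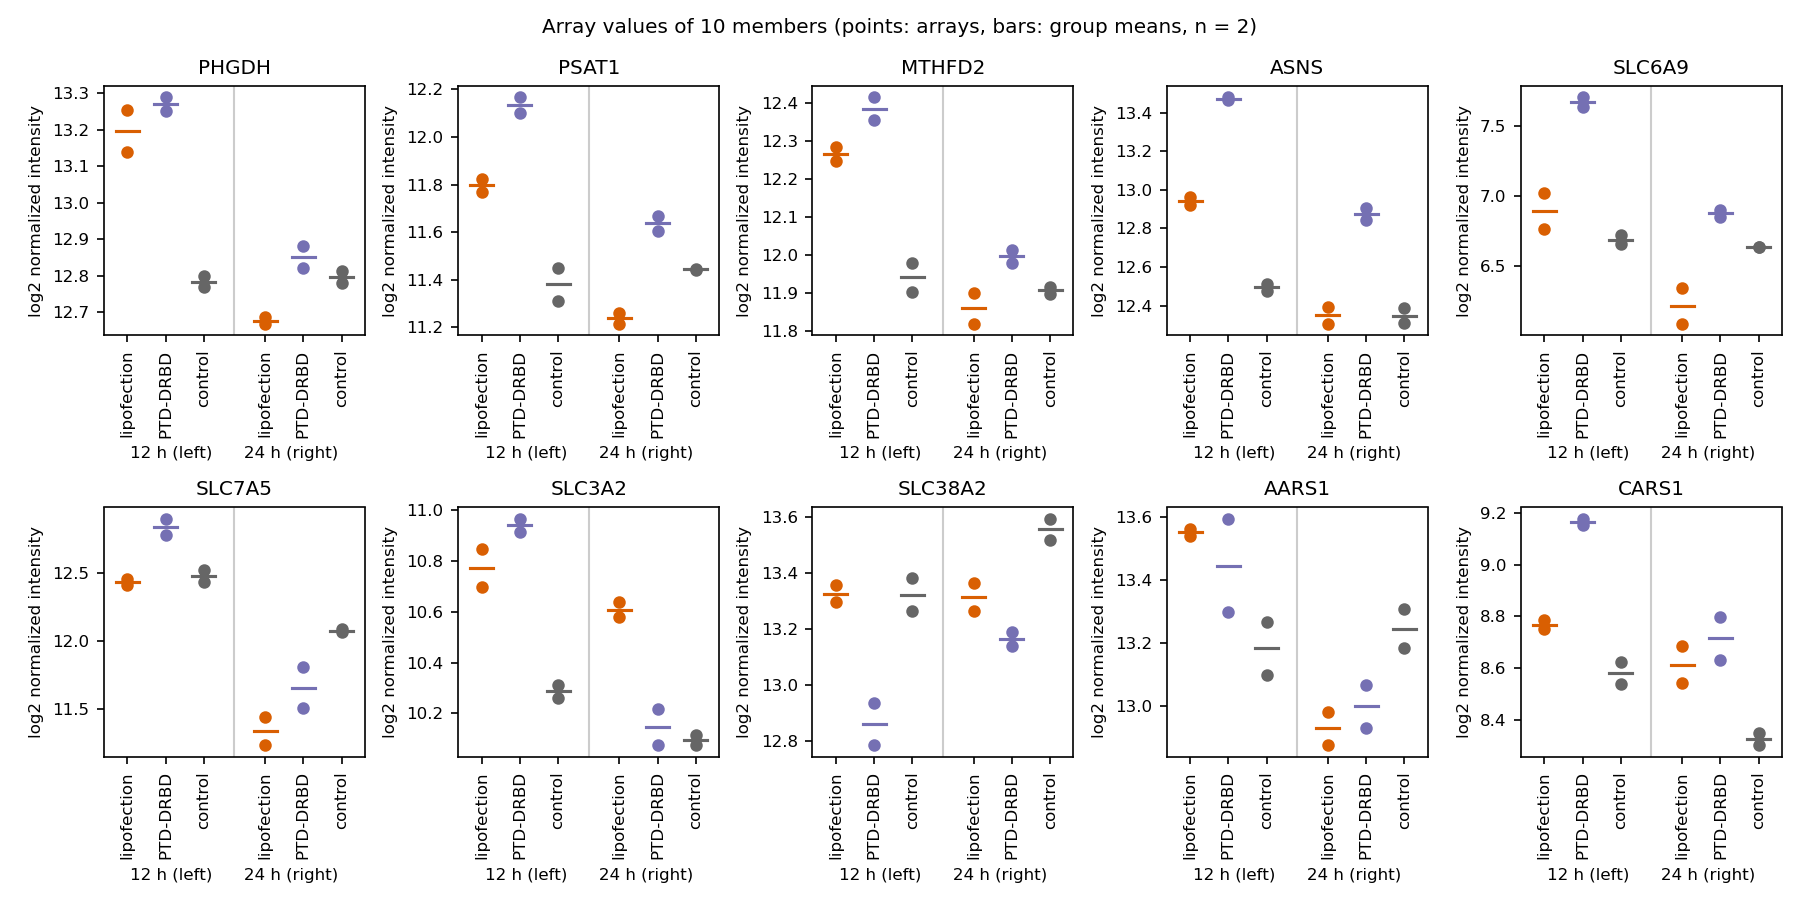
Log2 normalized intensity (vertical axes, each with its own range) of 10 members on the 12 arrays, with 12 h on the left and 24 h on the right of each panel, points for arrays and bars for group means (n = 2). ASNS, PSAT1 and SLC6A9 are highest on the PTD-DRBD arrays at 12 h, and SLC7A5 is lowest on the lipofection arrays at 24 h, at 11.45 and 11.24.

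Transporters did not move as a block. At 12 h 1 of 8 rose with lipofection, and 3 rose and 1 fell with PTD-DRBD; at 24 h 1 rose and 3 fell with lipofection and 2 fell with PTD-DRBD. SLC6A9 encodes the glycine transporter GlyT1 and was the 1 member that passed in both directions. Its arrays read 6.77 and 7.02 with lipofection and 7.71 and 7.64 with PTD-DRBD at 12 h, against 6.66 and 6.72 in control cells, a rise of 0.98 (1.97-fold, SE 0.10, adjusted p 0.000465) with PTD-DRBD and a change of 0.20 (adjusted p 0.238) with lipofection. At 24 h they read 6.35 and 6.09 with lipofection and 6.90 and 6.86 with PTD-DRBD, against 6.64 and 6.64, so the lipofection arrays were the lowest of all 12 (-0.42, SE 0.10, adjusted p 0.0137). A second SLC6A9 probe changed by 0.42 with PTD-DRBD at 12 h (adjusted p 0.258) and by -0.04 with lipofection at 24 h (adjusted p 0.906), so both SLC6A9 calls rest on 1 of its 2 probes.

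SLC3A2 and SLC7A5 encode the heavy and light chains of the leucine and large neutral amino acid carrier, in which the heavy chain brings the light chain to the cell surface. SLC3A2 measured 10.70 and 10.84 with lipofection and 10.91 and 10.97 with PTD-DRBD at 12 h, against 10.31 and 10.26 in control cells (0.48 with lipofection, adjusted p 0.00336; 0.65 with PTD-DRBD, adjusted p 0.00126). At 24 h it measured 10.64 and 10.58 with lipofection and 10.22 and 10.08 with PTD-DRBD, against 10.07 and 10.11, so it was still high with lipofection (0.51, SE 0.081, adjusted p 0.00158) but overlapped the control arrays with PTD-DRBD (0.05, adjusted p 0.696). Its second probe gave 0.66 with lipofection and 0.52 with PTD-DRBD at 12 h, and 0.75 and 0.04 at 24 h, which passed in the same 3 comparisons.

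SLC7A5, the light chain, did not follow its partner with lipofection. With PTD-DRBD at 12 h its arrays lay above both controls, as did those of its partner. It measured 12.46 and 12.41 with lipofection and 12.78 and 12.90 with PTD-DRBD at 12 h, against 12.52 and 12.43 in control cells, and neither change passed (-0.04, and 0.36 with adjusted p 0.0629). At 24 h it fell to 11.45 and 11.24 with lipofection and to 11.81 and 11.51 with PTD-DRBD, against 12.09 and 12.07 in control cells (-0.74 with lipofection, SE 0.11, adjusted p 0.00103; -0.42 with PTD-DRBD, SE 0.11, adjusted p 0.0289). On the lipofection arrays at 24 h the change of SLC3A2 from the control mean exceeded that of SLC7A5 by 1.18 and 1.33 log2 units, and on the PTD-DRBD arrays by 0.39 and 0.55. At 12 h the excess was 0.43 and 0.62 with lipofection and 0.33 and 0.26 with PTD-DRBD. The 2 control arrays of a time mirror each other about their own mean, here by at most 0.032. They therefore give no measure of the spread of this excess, which was not tested. The SLC3A2 protein also partners other light chains, among them that of SLC7A11, the cystine carrier.

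SLC38A2, the neutral amino acid carrier SNAT2, was the 1 member that fell with PTD-DRBD at 12 h. It measured 13.30 and 13.36 with lipofection and 12.78 and 12.94 with PTD-DRBD at 12 h, against 13.38 and 13.26 in control cells, and 13.36 and 13.26 with lipofection and 13.19 and 13.14 with PTD-DRBD at 24 h, against 13.52 and 13.59. It fell with PTD-DRBD at both times (-0.46, SE 0.083, adjusted p 0.00847 at 12 h; -0.39, SE 0.083, adjusted p 0.0148 at 24 h) and not with lipofection (0.0029 at 12 h; -0.24, adjusted p 0.0555 at 24 h), and lipofection minus PTD-DRBD passed at 12 h (0.47) but not at 24 h (0.15, adjusted p 0.306). SLC1A4, a carrier of alanine, serine and cysteine, rose with PTD-DRBD at 12 h by 0.57 (SE 0.15, adjusted p 0.0384), and its change with lipofection was 0.41 (adjusted p 0.0978). It was a dim gene, with group means at 12 h of 6.42 with PTD-DRBD and 5.85 in control cells. Its change with PTD-DRBD at 12 h ranged from 0.31 to 0.73 over the alternatives run. SLC7A1, the cationic amino acid carrier CAT1, fell with lipofection at 24 h by 0.32 (adjusted p 0.0198). The glutamine carriers SLC1A5 and SLC38A1 passed in no comparison, with changes against control between -0.32 and 0.34.

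The 19 cytosolic tRNA synthetases had median changes of 0.13 with lipofection and 0.16 with PTD-DRBD at 12 h and of -0.14 and -0.03 at 24 h. With lipofection 3 rose at 12 h (4.95% of all genes), and at 24 h 1 rose and 5 fell (10.6% and 12.9% of all genes). With PTD-DRBD 5 rose at 12 h (3.42% of all genes), and at 24 h 1 rose and 1 fell, near the shares of all genes (5.87% and 8.15%). CARS1, the cysteinyl-tRNA synthetase, was higher in 3 comparisons. Its arrays read 8.79 and 8.75 with lipofection and 9.15 and 9.18 with PTD-DRBD at 12 h, against 8.54 and 8.62 in control cells, and 8.54 and 8.69 with lipofection and 8.63 and 8.80 with PTD-DRBD at 24 h, against 8.30 and 8.35. All treated arrays lay above the controls of their time. It rose with PTD-DRBD at 12 h (0.58, SE 0.083, adjusted p 0.00245), by 0.29 with lipofection at 24 h (adjusted p 0.0282) and by 0.39 with PTD-DRBD at 24 h (adjusted p 0.0150).

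The tryptophanyl and methionyl enzymes rose with both routes at 12 h. WARS1 measured 10.08 and 10.19 with lipofection and 10.22 and 10.29 with PTD-DRBD, against 9.75 and 9.78 in control cells (0.37, adjusted p 0.0198; 0.49, adjusted p 0.00817). MARS1 measured 11.27 and 11.31 with lipofection and 11.42 and 11.47 with PTD-DRBD, against 11.04 and 11.00 (0.27, adjusted p 0.0315; 0.43, adjusted p 0.00549). At 24 h neither passed: WARS1 read 9.79 and 9.78 with lipofection and 10.19 and 9.96 with PTD-DRBD, against 9.79 and 9.86, and MARS1 read 11.13 and 11.07 with lipofection and 11.37 and 11.31 with PTD-DRBD, against 11.10 and 11.16. GARS1 and SARS1, which charge glycine and serine, rose with PTD-DRBD at 12 h by 0.43 (adjusted p 0.0219) and 0.37 (adjusted p 0.0175).

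AARS1, the alanyl-tRNA synthetase, measured 13.56 and 13.54 with lipofection and 13.30 and 13.59 with PTD-DRBD at 12 h, against 13.27 and 13.10 in control cells, and rose with lipofection (0.37, adjusted p 0.0467). At 24 h it measured 12.98 and 12.88 with lipofection and 13.07 and 12.93 with PTD-DRBD, against 13.31 and 13.18, so that every treated array was then below both controls, although neither change passed (-0.32 with lipofection and -0.25 with PTD-DRBD). QARS1, the glutaminyl enzyme, fell with both routes at 24 h, to 13.31 and 13.15 with lipofection and 13.27 and 13.18 with PTD-DRBD, against 13.64 and 13.61 (-0.39, adjusted p 0.00567; -0.40, adjusted p 0.0113). At 12 h neither change passed, at 13.46 and 13.41 with lipofection and 13.31 and 13.31 with PTD-DRBD, against 13.39 and 13.46. VARS1, for valine, also fell with lipofection at 24 h, to 10.54 and 10.53 against 10.88 and 10.86 in control cells (-0.34, adjusted p 0.0113), after 10.71 and 10.77 with lipofection and 10.67 and 10.67 in control cells at 12 h. The other calls at 24 h with lipofection were EPRS1 (-0.33, adjusted p 0.0290), HARS1 (-0.30, adjusted p 0.0168) and YARS1 (-0.29, adjusted p 0.0446).

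Of these synthetases, 7 belong to the multisynthetase complex of mammalian cells and 12 do not. With lipofection at 24 h all 7 in the complex were on the lower side (2 passed, median -0.24), as were 11 of the 12 outside it (3 fell and 1 rose, median -0.13). At 12 h with PTD-DRBD 1 of the 7 and 4 of the 12 rose (medians 0.10 and 0.26). The 15 mitochondrial synthetases measured, which serve the separate mitochondrial translation system, had 1 higher and 1 lower with lipofection at 12 h, 0 that passed with PTD-DRBD (1 and 3 at an unadjusted p under 0.05 at 12 h and 24 h), and 4 lower with lipofection at 24 h, among them LARS2 (-0.38), NARS2 (-0.37) and VARS2 (-0.29). These lists are compared by counts only, and the difference between them was not tested.

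Arrays of a group did not carry the 24 h shift equally. The median distance of the 34 genes from the control mean was 0.12 and 0.13 on the lipofection arrays and 0.21 and 0.30 on the PTD-DRBD arrays at 12 h, and -0.11 and -0.22 on the lipofection arrays and 0.03 and -0.06 on the PTD-DRBD arrays at 24 h, with all genes within 0.013 of 0. Counts of calls moved with single arrays. For lipofection at 24 h the 11 calls became 3 without its second array, 11 without its first, and 4 without either control array in turn; for PTD-DRBD at 24 h the 5 calls became 1 without its second array and 1 without either control array in turn, and 6 without its first array. At 12 h the 8 lipofection calls became 4 and 2 without the first and second lipofection array and 5 and 3 without the first and second control array, and the 14 PTD-DRBD calls became 9, 9, 9 and 10 in the same 4 omissions. SLC7A5 fell with lipofection at 24 h, and ASNS, PSAT1, SLC3A2 and SLC6A9 rose with PTD-DRBD at 12 h, under every omission and every other alternative run.

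**Figure D3:**
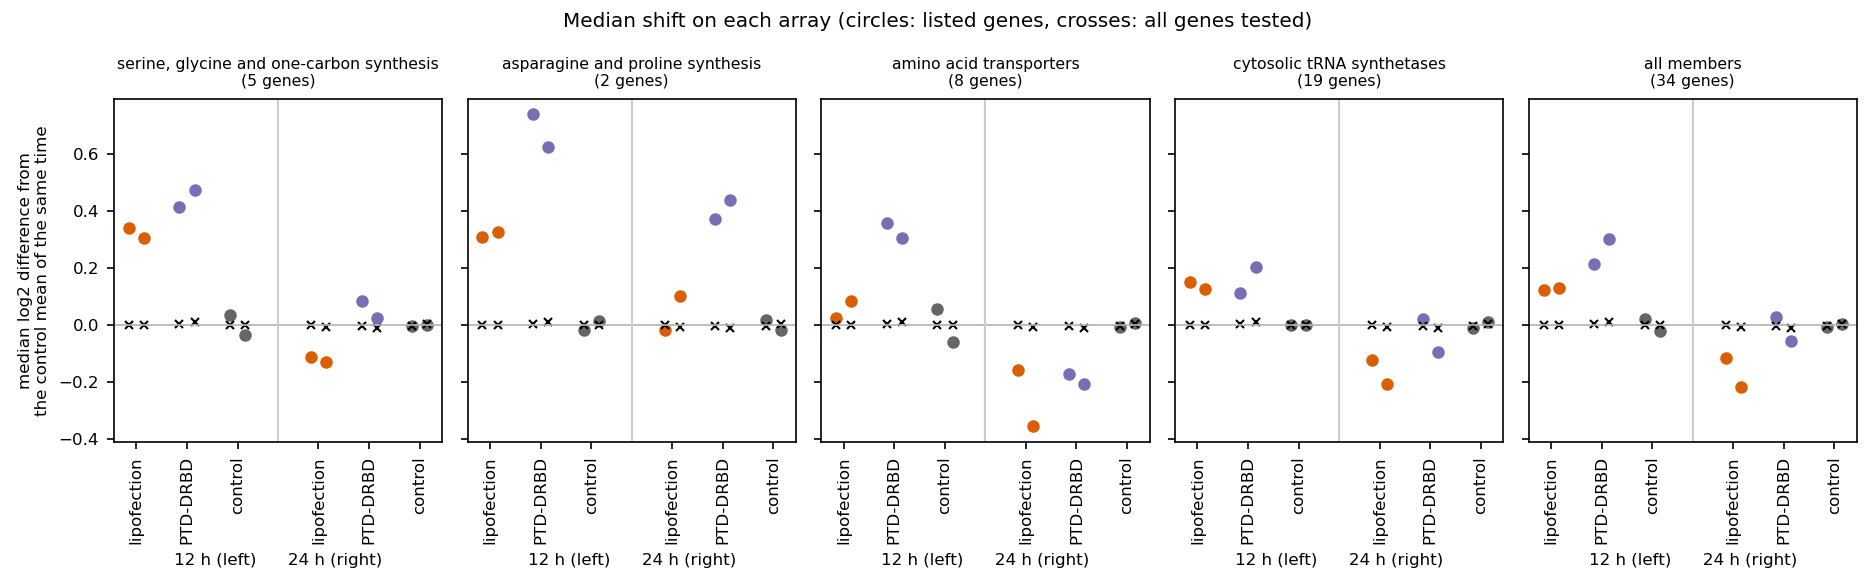
Median log2 difference from the control mean of the same time on each of the 12 arrays (circles), for the 4 groups of genes and for all 34, with 12 h on the left and 24 h on the right of each panel and crosses for the median of all 12117 genes. Circles of treated arrays lie above 0 at 12 h in every panel, while at 24 h both lipofection arrays lie below 0 for the serine enzymes, the transporters, the synthetases and all 34 genes. For the transporters at 12 h, 1 lipofection array (0.03) lies below 1 control array (0.06).

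Set against each other directly, the routes differed at 12 h in 7 members: 1 was higher with lipofection than with PTD-DRBD and 6 were lower (6.51% and 8.29% of all genes). At 24 h 1 was higher and 3 were lower (4.69% and 3.57% of all genes). The SLC6A9 probe used was lower with lipofection, by a difference of -0.78 at 12 h (SE 0.10, adjusted p 0.000722) and -0.66 at 24 h (adjusted p 0.00344), while in a fit of all probes its second probe gave -0.28 and -0.35 and did not pass (adjusted p 0.411 and 0.319). ASNS was lower with lipofection by 0.53 at both times (adjusted p 0.000909 and 0.00179) and PSAT1 by 0.34 and 0.40 (adjusted p 0.0138 and 0.00991). FARSA, the alpha subunit of the phenylalanyl enzyme, measured 9.30 and 9.12 with lipofection and 9.69 and 9.70 with PTD-DRBD at 12 h (difference -0.49, adjusted p 0.00805), with the control arrays, at 9.27 and 9.52, between and overlapping the lipofection arrays. CARS1 (-0.40) and SLC7A5 (-0.40) were the other genes lower with lipofection at 12 h. SLC38A2 was higher with lipofection at 12 h (0.47, adjusted p 0.00413) and SLC3A2 at 24 h (0.46, adjusted p 0.00675).

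Over all 34, the lipofection mean was below the PTD-DRBD mean for 27 genes at 12 h and 30 genes at 24 h, which share no arrays, where 50.5% and 50.3% of all genes were. Median differences were -0.14 and -0.13, against -0.0022 and -0.0015 over all genes. For SLC3A2 at 12 h the routes were not told apart (-0.17, 95% interval -0.35 to 0.0095, adjusted p 0.196), nor for SLC1A4 (-0.16, 95% interval -0.48 to 0.17). The count at 12 h became 4 and 3 without the first and second lipofection array. GAPDH itself differed between the routes by more than any of these genes, and whether the members' differences follow it was not tested.

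Regulators and targets of the amino acid response went both ways between the routes at 12 h, with 3 higher and 3 lower with lipofection than with PTD-DRBD and a median difference of -0.05. Of 24 measured genes of the eIF2 alpha pathway, 7 rose and 0 fell with lipofection at 12 h, 10 rose and 0 fell with PTD-DRBD at 12 h, 7 rose and 1 fell with lipofection at 24 h, and 3 rose and 1 fell with PTD-DRBD at 24 h. DDIT3 (CHOP), a transcription factor induced by ATF4, measured 9.52 and 9.56 with lipofection and 8.93 and 8.68 with PTD-DRBD at 12 h, against 7.93 and 7.95 in control cells, so that here lipofection was highest (lipofection minus PTD-DRBD 0.74, SE 0.11, adjusted p 0.00119). ATF3, another ATF4-induced factor, read 9.54 and 9.66 with lipofection and 8.66 and 8.79 with PTD-DRBD, against 8.07 and 8.11, again with lipofection highest (0.87, adjusted p 0.000116). STC2, a secreted glycoprotein of the same response, was highest with PTD-DRBD like ASNS, at 8.18 and 8.27 with lipofection and 8.71 and 8.80 with PTD-DRBD, against 8.11 and 8.01 (-0.53, adjusted p 0.00152). The other genes that passed between the routes were EIF2AK1 (0.29), EIF2S1 (-0.26) and JDP2 (-0.29). TRIB3, a pseudokinase that restrains ATF4, rose by 0.95 with lipofection and 0.76 with PTD-DRBD at 12 h and did not pass at 24 h (0.06 and 0.04).

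ATF4 RNA itself did not pass against control (0.19 with lipofection and 0.28 with PTD-DRBD at 12 h, adjusted p 0.168 and 0.0613), and its protein, which is set mainly by translation, was not measured. EIF2AK4, which encodes GCN2, did not pass in any of the 9 comparisons. SESN2, a stress-induced inhibitor of mTORC1, was not well above background on either control array at 12 h, and rose at least 1.62-fold with lipofection (adjusted p 0.000520) and at least 1.33-fold with PTD-DRBD (adjusted p 0.00512). Such a bound sets the treated mean against the dimmest detected probes of the control arrays. CHAC1, a glutathione-degrading enzyme, was likewise not well above background in control cells and rose at least 1.26-fold with PTD-DRBD (adjusted p 0.0115) at 12 h. With lipofection 1 of its 2 arrays detected it, and no fold is given. NUPR1, a stress-induced nuclear protein, rose with lipofection at 24 h by 0.67 (adjusted p 0.0206), with 1 of 2 control arrays above background.

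**Figure D4:**
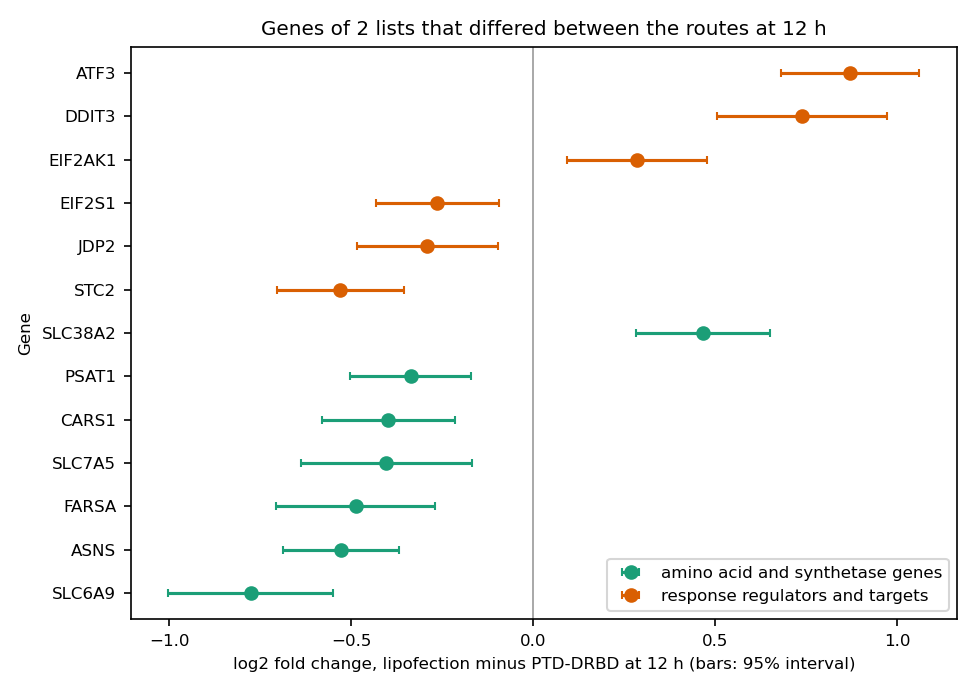
Log2 fold change of lipofection minus PTD-DRBD at 12 h for the 7 members and the 6 eIF2 alpha pathway genes that passed (points, with bars for the 95% interval). ASNS, SLC6A9, PSAT1, CARS1, SLC7A5 and FARSA lie left of 0, on the side of higher values with PTD-DRBD, as do STC2, JDP2 and EIF2S1, while SLC38A2, DDIT3, ATF3 and EIF2AK1 lie right of 0.

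Other genes of amino acid metabolism and sensing are given for comparison. Of 17 other enzymes, 2 rose with lipofection and 2 rose and 1 fell with PTD-DRBD at 12 h, and at 24 h 1 rose and 5 fell with lipofection and 3 fell with PTD-DRBD. CTH, which makes cysteine from cystathionine, rose with both routes at 12 h, reading 7.70 and 7.70 with lipofection and 7.79 and 7.76 with PTD-DRBD, against 7.13 and 7.26 in control cells (0.50, adjusted p 0.00215; 0.58, adjusted p 0.00184). CBS, which makes cystathionine, rose with PTD-DRBD (0.55, adjusted p 0.00365) and was lower with lipofection than with PTD-DRBD at both times (-0.46 and -0.35). AMT and GLDC of the glycine cleavage system and the cytosolic SHMT1 fell with PTD-DRBD at 24 h (-0.43, -0.42 and -0.37), while BCAT1, GLDC and SHMT1 were the largest falls with lipofection at 24 h (-0.49, -0.46 and -0.40).

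Of 18 other transporters, 2 rose and 2 fell with lipofection and 1 rose with PTD-DRBD at 12 h; at 24 h 1 rose and 1 fell with lipofection and 0 passed with PTD-DRBD (1 at an unadjusted p under 0.05). SLC7A11 measured 6.37 and 6.14 with lipofection and 5.47 and 5.36 with PTD-DRBD at 12 h, against 5.10 and 5.02 in control cells, of which 1 array was above background (1.20 with lipofection, adjusted p 0.000157). It was 0.84 higher with lipofection than with PTD-DRBD (adjusted p 0.00134), and at 24 h it was not well above background on any array. SLC1A3 and SLC7A2 fell with lipofection at 12 h (-0.72 and -0.45), SLC36A1 rose with PTD-DRBD at 12 h (0.33), and at 24 h SLC6A6 rose (0.57) and SLC25A12 fell (-0.33) with lipofection. Among 11 genes of mTORC1, the kinase complex that senses amino acids, and of its regulators, 3 rose with lipofection at 12 h and 6 at 24 h, while 0 and 1 did with PTD-DRBD (1 at 12 h at an unadjusted p under 0.05). With lipofection at 24 h 0 fell (1 at an unadjusted p under 0.05), and the lowest change was -0.50. The activity of mTORC1 was not measured, and these counts give no direction for it. RRAGC (0.62), TSC1 (0.59) and FLCN (0.55) were the largest with lipofection at 24 h. AIMP1, the 1 scaffold protein of the multisynthetase complex measured, passed in no comparison.

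The effect of lipofection changed with time for 8 of the 34 genes, all toward lower values at 24 h, where 3.97% of all genes changed upward and 4.02% downward. They were SLC7A5 (-0.69, adjusted p 0.0244), AARS1 (-0.68, adjusted p 0.0254), SLC6A9 (-0.63, adjusted p 0.0296), PSAT1 (-0.62, adjusted p 0.0103), PHGDH (-0.53, adjusted p 0.0156), ASNS (-0.45, adjusted p 0.0281), VARS1 (-0.40, adjusted p 0.0485) and MTHFD2 (-0.37, adjusted p 0.0480). In a limma fit of all probes the second SLC6A9 probe gave -0.18 (adjusted p 0.738). The SLC6A9 call was lost when the mean of its kept probes was used. The 0 that changed upward stayed 0 at an unadjusted p under 0.05, where 16 changed downward. At the adjusted p the count was the 8 genes named above, and it moved with single arrays. This count became 1 without the second lipofection array of 24 h or the second control array of 12 h, 1 and 2 without the first and second control array of 24 h, 4 without the first control array of 12 h, and 3 and 0 without the first and second lipofection array of 12 h.

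For PTD-DRBD 0 of the 34 passed in the change of the effect with time, where 0.124% of all genes changed upward and 0.239% downward. At an unadjusted p under 0.05 there were 18, all downward, and the limma fits with an intensity trend and with the authors' normalized values gave 10 and 7. Leaving out the first PTD-DRBD array of 24 h gave 2. SLC7A5 (-0.78), SLC6A9 (-0.74), SLC3A2 (-0.60) and PSAT1 (-0.56) shared an adjusted p of 0.0546, and ASNS changed by -0.45 (adjusted p 0.0695), the same size as with lipofection. The second SLC6A9 probe gave -0.10 in the limma fit of all probes (adjusted p 0.880). The median of the 34 was -0.27 with PTD-DRBD and -0.30 with lipofection, 30 and 29 of the 34 were below 0, and 52.1% and 49.7% of all genes were. SLC3A2 kept its rise with lipofection (change with time 0.03, 95% interval -0.22 to 0.28). For CARS1 the change with time did not pass with either route (0.10, 95% interval -0.16 to 0.36 with lipofection; -0.19, 95% interval -0.45 to 0.06 with PTD-DRBD).

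In control cells alone, the later time against the earlier, 0 of the 34 rose and 1 fell, where 4.15% of all genes rose and 4.56% fell. The gene was SLC7A5, at 12.09 and 12.07 at 24 h against 12.52 and 12.43 at 12 h (-0.40, SE 0.11, adjusted p 0.0401). Its fall with both routes at 24 h was measured against this lower control level. At an unadjusted p under 0.05, 3 rose and 4 fell. SLC7A5 no longer passed when any 1 of the 4 control arrays was left out. ASNS (-0.15), PSAT1 (0.06) and PHGDH (0.01) did not pass.

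The authors' deposited table lists probes by their own fold change against control, with lower values given a minus sign and no p-value. By its name it holds only probes past a fold cutoff, so a member can be absent and still have passed here. For PTD-DRBD at 12 h the authors' deposited table holds 3 members among 45 probes, ASNS at 1.95, SLC6A9 at 1.69 and PSAT1 at 1.66. For lipofection at 24 h the authors' deposited table holds 2 among 179 probes, SLC7A5 at -1.68 and the second SLC3A2 probe at 1.62. For lipofection at 12 h (105 probes) and PTD-DRBD at 24 h (55 probes) the authors' deposited table holds 0 of the 34.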

How the data were processed

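RNA from 12 H1299 samples was labelled with biotin and hybridised to Illumina bead arrays, per the labels' protocols. The authors deposited intensity values per probe without normalization, with a detection p-value for each, and, per the submitters' processing notes, used BeadStudio; a table of normalized intensity and a list of signed fold change scores were also deposited by the authors, with no statement of how they were made. The intensities were background corrected and quantile normalized with limma 3.58.1 (neqc, offset 16) in R 4.3.3, giving log2 values from the deposited intensities. Probes detected (p under 0.05) on both arrays of a group were kept (19631 of 48701). Of all probes, 23687 had 1 annotated gene, 35 several and 24979 none, and 23651 of the 23687 had an Entrez ID found in RefSeq. The brightest probe stood for a gene.

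One limma fit over 12 arrays (6 residual and 5.30 prior degrees of freedom) gave 9 comparisons with Benjamini-Hochberg adjustment. An exact permutation test of 2 against 2 arrays cannot go below 0.333. Members and gene lists were chosen with earlier results of these data known. In each group of genes and comparison the text names up to 5 members that passed with the largest change, members that passed in both directions, and up to 3 genes of each other list; array values are given for members that passed in at least 2 comparisons with control or in a change with time. Alternatives were other normalizations, filters, probes, fits and omitted arrays. Chip and hybridisation batch were not given. The fit was tested on simulated data.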

Additional observations from a re-analysis of the deposited data

Results flagged for a closer look

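The effect of a route was set at 24 h against 12 h in the limma fit, and the results below passed that test of the difference itself. Among the members, with lipofection, the effect on PHGDH was lower at 24 h by a log2 change of -0.53, on PSAT1 by -0.62, on MTHFD2 by -0.37 and on ASNS by -0.45. For the transporters SLC7A5 and SLC6A9 the change was -0.69 and -0.63, and for the synthetases AARS1 and VARS1 it was -0.68 and -0.40. The second SLC6A9 probe gave -0.18 and did not pass.

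Of the other lists, the regulators TRIB3, ATF3 and SESN2 had changes of -0.88, -0.76 and -0.75 with lipofection, and TRIB3 changed by -0.72 with PTD-DRBD. The mitochondrial TARS2 changed by -0.45 and the aspartate aminotransferase GOT1 by -0.37. The cystine carrier SLC7A11 changed by -1.12, with no array above background at 24 h, so this is a measured difference and not a fold. SESN2 was not above background on the control arrays at 12 h. The argininosuccinate synthase ASS1 and the glutamate carrier SLC1A3 went the other way, by 0.50 and 0.50, and SLC1A3 fell by 0.50 in control cells between the times. All 8 member changes with lipofection were lost without the second lipofection array of 12 h, and 1 to 8 of the 34 genes passed when another array was left out.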

How the results depend on the processing

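Of 58 member calls over the 9 comparisons, 6 held under all alternatives run, 52 were lost in at least 1, and none was reversed. Requiring a change of at least 1.5-fold left 0 members with lipofection and 4 with PTD-DRBD at 12 h, 1 and 0 at 24 h, 1 between the routes at each time, 4 in the change of the lipofection effect and 0 in control cells. Leaving out the second treated arrays at 24 h together gave 3 with lipofection, 1 with PTD-DRBD, 0 between the routes and 2 in the change of the lipofection effect. With only the arrays compared the counts were 7 for lipofection at 24 h, 2 between the routes at 24 h and 1 in the change of the PTD-DRBD effect. An intensity trend with robust moderation gave 17 with lipofection and 10 with PTD-DRBD at 24 h, 9 between the routes at 24 h, 14 and 10 in the changes of the lipofection and PTD-DRBD effects and 3 in control cells. Quantile normalization without background correction gave 10 with PTD-DRBD at 24 h, 9 between the routes at 24 h, 13 and 9 in the changes with time and 3 in control cells, and the authors' normalized values gave 11 with PTD-DRBD at 24 h, 7 between the routes at 24 h and 13 and 7 in the changes with time. Cyclic loess and detection on all 12 arrays each gave 4 in the change of the PTD-DRBD effect, and no detection filter gave 0 in control cells. The cause of these moves was not tested.

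Leaving out 1 array at a time gave 2 to 5 members with lipofection and 9 to 10 with PTD-DRBD at 12 h, 3 to 11 and 1 to 6 at 24 h, 3 to 6 and 3 to 4 between the routes at 12 h and 24 h, 0 to 8 and 0 to 2 in the changes of the lipofection and PTD-DRBD effects, and 0 in control cells each time. A group left with 1 array was assumed to vary like the others. No paired analysis was possible because replicate numbers only name the arrays. With 2 arrays a group, the smallest member change that passed was 0.27 log2 units.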
